A study of Mus musculus with 24 samples.

Results

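The genes described here are the chemokines and chemokine receptors of epididymal white adipose tissue (eWAT), the visceral fat depot of the male mouse. They were picked by symbol: ligands named Ccl or Cxcl with a number, Cx3cl1, Xcl1 and Pf4, receptors named Ccr or Cxcr with a number, Cx3cr1 and Xcr1, and the atypical receptors named Ackr with a number. Of the 16730 genes in the table, 45 matched: 27 ligands, 14 receptors and 4 atypical receptors. All 45 are protein coding, and their deposited positions are those of release M21 of the GENCODE annotation on GRCm38.

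RNA was measured by QuantSeq, which reads each transcript near its 3′ end, in 24 eWAT libraries of 6 mice per group. Control mice (Lama4 fl/fl) carried a floxed Lama4 allele and no Cre. Lama4 AKO mice carried the same allele and an Adiponectin-Cre transgene, which is active in adipocytes, so the vascular, stromal and immune cells of the depot keep the gene. Both genotypes were C57BL/6J littermates fed either chow (diet 5015) or a high-fat diet (HFD) with 45% fat for 20 weeks. By the study's figure legends, chow was given from weaning, and the HFD started and ended at older ages. Diet and age therefore cannot be told apart here. The labels call the controls wild type (floxed), and the comparisons ask how diet, loss of adipocyte laminin α4, and both together moved eWAT transcripts.

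Chemokines are small secreted proteins that bind G protein-coupled receptors on leukocytes and direct their migration along a gradient. Inflammatory chemokines such as Ccl2 are induced at sites of tissue stress, whereas homeostatic ones such as Cxcl12 are made constantly by stromal cells. Atypical receptors bind the same ligands without G protein signalling and remove or present them. In the fat of obese mice, the Ccl2 and Ccr2 pair is known for bringing in monocytes that become macrophages. Adipocytes, stromal cells, endothelium and resident macrophages all make some of these ligands, whereas most of the receptors mark leukocytes. In bulk tissue, fewer cells of a type and less RNA per cell cannot be told apart.

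Libraries held between 5579590 and 18764516 counts. Levels are given in CPM, a gene's counts as a share of the TMM-scaled library total, and are not divided by gene length because each transcript is counted at its 3′ end. Differences are log2 fold changes with a standard error (SE) from edgeR's quasi-likelihood fit to all 24 libraries. The stricter rule called a gene where the fold change reached 1.5, the nominal p was 0.001 or less and the higher group averaged 2 CPM or more. A second rule was an adjusted p of at most 0.05 over all 15020 genes tested. 44 of the 45 members passed the filter of 1 CPM in 3 libraries, and Ccr10, a skin-homing receptor, lay under it at 0 to 0.752 CPM. QuantSeq tags fall at the 3′ end of Lama4, far from the deleted exon, so they do not read its loss directly. By qPCR, the study reported a knockdown of Lama4 in eWAT of chow-fed Lama4 AKO mice. Lama4 lay at 41.7 to 194 CPM in chow-fed controls and 63 to 133 CPM in chow-fed Lama4 AKO mice, and at 32.5 to 134 and 37 to 91.4 CPM on the HFD. Its medians in controls and Lama4 AKO were 91.1 and 114 CPM on chow, and 79.8 and 44.3 CPM on the HFD. The chow values did not show that knockdown, and the reason was not tested.

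Libraries of 1 group differed widely. Replicate 1 of the chow-fed controls was the lowest of its group for 32 of 44 members, with 1559 CPM summed over 8 macrophage markers (the others, 5736 to 10876) and 19950 CPM over 7 adipocyte markers (the others, 4257 to 7538). Replicates 1 to 4 of chow-fed Lama4 AKO (macrophage sums of 2206, 3901, 2248 and 3815 CPM) and replicates 4 and 6 of HFD-fed controls (2170 and 2845 CPM) lay low in the same way, whereas the 6 HFD-fed Lama4 AKO libraries held 6537 to 11941 CPM. Adipocyte markers were present in every library (2735 to 19950 CPM). The part of this makeup in the differences described here was not tested. The study set aside outlier libraries by principal components, and 5 were taken as those, inferred from these data and not named by a source: replicate 3 of the chow-fed controls, replicate 5 of chow-fed Lama4 AKO, and replicates 3, 4 and 6 of HFD-fed controls. Leaving out libraries for their expression can enlarge a diet difference, so for the called members values for the remaining 19 mice stand beside those for all 24.

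**Figure D1:**
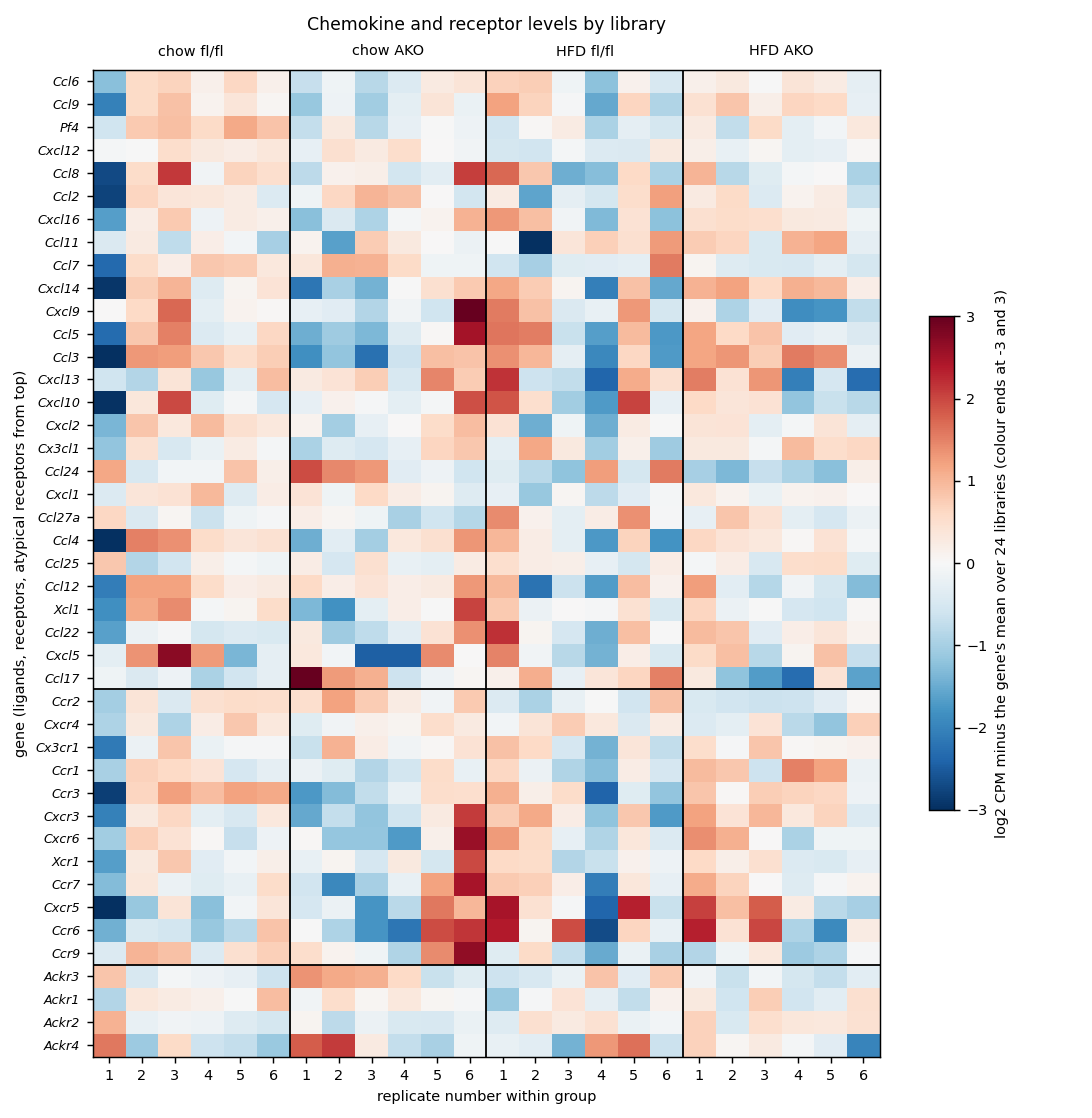
Level of each of 43 tested members (rows) in each of the 24 libraries (columns, by group and replicate number). Colour is log2 CPM minus the gene's mean over the 24 libraries, and lines separate the 4 groups and the ligands, receptors and atypical receptors. Replicate 1 of the chow-fed controls is low in most rows, and replicate 6 of chow-fed Lama4 AKO is high for Cxcl9, Ccl5, Ccl8 and Cxcr6.

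The ligands spanned a wide range of levels. By their median over all libraries, 5 members lay over 100 CPM, 15 at 10 to 100 CPM, 19 at 1 to 10 CPM and 6 at or under 1 CPM. The 5 most abundant were ligands: Ccl6 with a median of 1166 CPM, Ccl9 with 492 CPM, Pf4 with 321 CPM, Cxcl12 with 148 CPM and Ccl8 with 123 CPM. Ccl6 and Ccl9 are myeloid CC chemokines that act on Ccr1, and Pf4 (platelet factor 4) is stored in platelets and is also made by tissue macrophages. Together Ccl6, Ccl9 and Pf4 held 47.3 to 73.4% of the summed CPM of all members in a library. Among receptors, Ccr2 was the most abundant (median 66.8 CPM), and the atypical receptor Ackr3 lay at 27.1 CPM. 4 platelet markers summed to 5.41 to 13.9 CPM, against 170 to 728 CPM of Pf4.

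Levels of some ligands varied more widely over the 24 libraries than those of others. From the lowest to the highest library, Cxcl12 spanned 2.15-fold and Ccl6 3.96-fold, whereas Ccl8 spanned 28.2-fold, Ccl5 28.5-fold, Cxcl9 29-fold, Cxcl10 36.8-fold and Ccl4 52.9-fold. Summed over the 45 members, the level ran from 1260 to 4843 CPM in chow-fed controls, 1890 to 4170 CPM in chow-fed Lama4 AKO, 1437 to 4494 CPM in HFD-fed controls and 2449 to 3472 CPM in HFD-fed Lama4 AKO, ranges that all overlapped.

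Cxcl9 and Cxcl10 are interferon-inducible ligands of Cxcr3, the receptor of activated T cells. They are neighbours on chromosome 5, Cxcl9 at 92321347 to 92328079 and Cxcl10 at 92346638 to 92348889, both on the reverse strand. In chow-fed controls, Cxcl9 lay between 40 and 162 CPM with a median of 51.3. In chow-fed Lama4 AKO mice it lay between 26.6 and 388 CPM with a median of 39.8, because replicate 6 held 388 CPM and the others at most 45.6 CPM. HFD-fed controls held 34.2 to 145 CPM (median 66.1) and HFD-fed Lama4 AKO mice 13.4 to 53.6 CPM (median 27.4). The groups overlapped, and the highest HFD-fed Lama4 AKO library lay below the highest library of each other group.

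The same 4 libraries were the highest for both genes, and they came from 3 groups. Replicate 6 of chow-fed Lama4 AKO held 388 CPM of Cxcl9 and 32.1 CPM of Cxcl10, and replicate 3 of the chow-fed controls held 162 and 33.4 CPM. Replicates 1 and 5 of HFD-fed controls held 145 and 120 CPM of Cxcl9 and 30.8 and 34.1 CPM of Cxcl10. In the other 20 libraries Cxcl10 did not exceed 12.7 CPM and Cxcl9 did not exceed 90.4 CPM. Ccl8, a CC chemokine of macrophages, was also highest in 3 of these 4 libraries, at 542 CPM in replicate 3 of the chow-fed controls, 530 CPM in replicate 6 of chow-fed Lama4 AKO and 412 CPM in replicate 1 of HFD-fed controls. Beside this, 8 T cell markers summed to 167 CPM in replicate 6 of chow-fed Lama4 AKO and to 76.7, 156 and 98.6 CPM in the other 3, and the group medians ran from 24.8 to 56.8 CPM. Libraries outside these 4 also held high T cell sums. Replicates 1 and 3 of HFD-fed Lama4 AKO held 101 and 78.8 CPM, and replicate 2 of HFD-fed controls held 81 CPM. The part of T cell number in the levels of Cxcl9, Cxcl10 and Ccl8 was not tested.

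**Figure D2:**
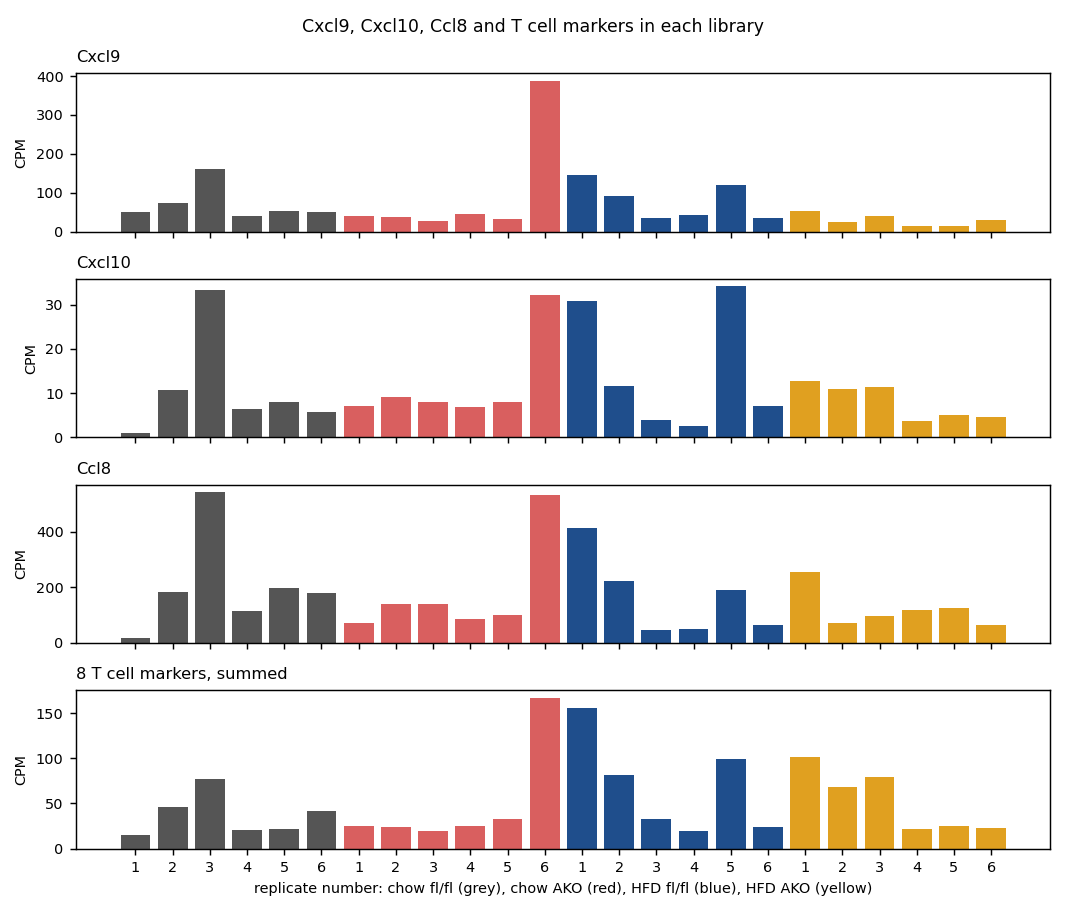
Cxcl9, Cxcl10, Ccl8 and the sum of 8 T cell markers in CPM (bars from 0) in each of the 24 libraries, 1 bar per mouse, coloured by group. Cxcl9 and Cxcl10 are highest in the same 4 libraries, replicate 3 of chow-fed controls, replicate 6 of chow-fed Lama4 AKO and replicates 1 and 5 of HFD-fed controls.

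Since these neighbours were high in the same libraries, the 250 bases before each start are shown, read 5′ to 3′ on the gene's strand from the RefSeq promoter table of GRCm38.p6. Capitals mark matches to a NF-kB-type motif spelled GGGNNTTCC, or to part of an interferon-stimulated response element spelled GAAANNGAA, searched on both strands, and the matches shown do not overlap. Cxcl9 spans chr5:92328080-92328329 and Cxcl10 spans chr5:92348890-92349139.
Cxcl9: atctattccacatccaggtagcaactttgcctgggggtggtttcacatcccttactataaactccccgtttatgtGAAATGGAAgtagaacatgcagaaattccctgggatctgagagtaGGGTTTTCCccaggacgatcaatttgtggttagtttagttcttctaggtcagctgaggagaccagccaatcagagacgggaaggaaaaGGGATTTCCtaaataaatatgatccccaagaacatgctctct
Cxcl10: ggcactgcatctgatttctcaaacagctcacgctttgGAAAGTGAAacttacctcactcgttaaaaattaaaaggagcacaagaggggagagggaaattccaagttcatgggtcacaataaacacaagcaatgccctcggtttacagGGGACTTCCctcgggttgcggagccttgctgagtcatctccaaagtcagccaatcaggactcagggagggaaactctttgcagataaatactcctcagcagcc
Cxcl9 held 2 NF-kB-type matches, at 34 to 42 and 122 to 130 bases before the start, and 1 match to the interferon element at 167 to 175 bases. Cxcl10 held 1 NF-kB-type match at 95 to 103 bases and 1 match to the interferon element at 205 to 213 bases. Of all 32851 promoters in that table, 4.98% held the NF-kB-type letters and 7.13% those of the interferon element in the same window. The 33 members found there have 37 promoters, of which 6 and 5 did. The former were those of Ackr1, Ackr4, Ccl9, Ccr6, Cxcl9 and Cxcl10, and the latter those of Ccl3, Ccr2, Cxcl14, Cxcl9 and Cxcl10. A match is a description of letters and was not tested as a binding site. Other spellings of either element were not searched, so these counts need not give all such elements.

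The diet comparison in Lama4 AKO mice asked how the HFD moved eWAT transcripts where adipocytes had lost laminin α4. None of the 44 members was called by edgeR at the fold change, nominal p and mean CPM rule, beside 4.12% of all genes. 9 members (20.5%) had an unadjusted p under 0.05, beside 39.8% of all genes. DESeq2 called 3 (6.82% beside 8.75%) and limma-voom 0 beside 4.02%. At an adjusted p of at most 0.05, 7 of 44 members (15.9%) differed, beside 22.1% of all genes. Of these, 6 were lower on the HFD (13.6% of members beside 12.9% of all genes) and 1 was higher (2.27% beside 9.13%), so the share that was lower was near that of all genes and the share that was higher lay below it. The median log2 fold change was -0.05 over members and -0.00311 over all genes.

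Ccr2, the receptor that inflammatory monocytes use to follow Ccl2, fell on the HFD in Lama4 AKO mice. It lay at 64.2 to 159 CPM (median 108) on chow and at 44 to 70.6 CPM (median 48.6) on the HFD. The groups overlapped by 1 library on each side, replicate 5 on chow (64.2 CPM) and replicate 6 on the HFD (70.6 CPM). The log2 fold change was -1.05 ± 0.29 (SE, n = 6 per group, edgeR adjusted p = 0.0224), and -1.16 ± 0.23 without the inferred libraries (adjusted p = 0.00103), where the stricter rule called it too. With all mice but 1, it missed the adjusted p without replicate 3 on chow or replicate 4 on the HFD. Its ligands Ccl2 (-0.33 ± 0.42, adjusted p = 0.573) and Ccl7 (-0.88 ± 0.41, adjusted p = 0.112) did not pass with all mice, and Ccl7 passed in the 19 mice (-0.98 ± 0.35, adjusted p = 0.0314).

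Ccr1, a receptor of macrophages and neutrophils for Ccl3, Ccl5, Ccl6 and Ccl9, was the 1 member higher at the adjusted p by edgeR with all 24 mice. It lay at 4.66 to 12.8 CPM (median 7.04) on chow and 5.59 to 24.8 CPM (median 16.1) on the HFD. Replicates 4, 5, 1 and 2 of HFD-fed Lama4 AKO, at 24.8, 20.1, 17 and 15.3 CPM, were the highest of all 24 libraries, whereas replicates 3 and 6 lay within the chow range. The log2 fold change was 1.02 ± 0.37 (adjusted p = 0.0494) and 1.22 ± 0.35 in the 19 mice (adjusted p = 0.0098), and it ranged from 0.82 to 1.22 when 1 mouse was left out. Leaving out any 1 of 17 libraries ended the call, in Lama4 AKO all but replicate 5 on chow and replicates 3 and 6 on the HFD. Nor did it pass with all 24 mice by limma-voom, with the replicate number as a block, or without the CPM filter. In the 19 mice 3 more members passed as higher: Ccl3 (1.69 ± 0.64, adjusted p = 0.0425) and Ccl9 (0.95 ± 0.33, adjusted p = 0.0275), both ligands of Ccr1, and Cxcl14 (1.29 ± 0.49, adjusted p = 0.0424), a chemokine of epithelial and stromal cells. With all 24 mice their log2 fold changes were 1.35 ± 0.68, 0.76 ± 0.41 and 1.10 ± 0.55, with adjusted p of 0.143, 0.159 and 0.137. Ccr1 and Ccr2 lie 133258 bases apart on chromosome 9, with Ccr3 between them, and differed in opposite directions. The ratio of Ccr1 to Ccr2 within a library, chosen after the values were seen, ran from 0.0395 to 0.199 in chow-fed Lama4 AKO, 0.109 to 0.552 in HFD-fed Lama4 AKO, 0.0596 to 0.257 in chow-fed controls and 0.047 to 0.257 in HFD-fed controls.

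Ackr3, which takes up Cxcl12 and clears it, fell from 20 to 81 CPM (median 57.4) on chow to 19.3 to 29.7 CPM (median 23.7) on the HFD. Replicates 1 to 4 on chow, at 81, 69.8, 66.6 and 48.2 CPM, lay above every HFD-fed library, and replicates 5 and 6, at 20 and 24.7 CPM, lay among them. The log2 fold change was -1.10 ± 0.33 (adjusted p = 0.0279), and -1.26 ± 0.27 in the 19 mice (adjusted p = 0.00177). With all mice but 1, the call was lost without replicate 1, 2 or 3 on chow or replicate 2, 4 or 5 on the HFD. Ccl24, an eotaxin that acts on Ccr3 of eosinophils, had the same 3 high libraries on chow, 31.3, 21.6 and 19.8 CPM in replicates 1 to 3. Replicates 4 to 6 held 6.27, 7.17 and 5.19 CPM and the HFD-fed libraries 3.04 to 8.94 CPM, and the log2 fold change was -1.71 ± 0.51 (adjusted p = 0.0268), and -1.85 ± 0.42 in the 19 mice (adjusted p = 0.00256). With all 24 mice, that call was lost without the same 6 libraries or replicate 1 on the HFD, and by limma-voom. Replicates 1 to 4 on chow had low macrophage and high adipocyte markers (adipocyte sums of 9852 to 16375 CPM, against 4285 and 5103 CPM in replicates 5 and 6). All 4 were high in Ackr3, and replicate 4 was not high in Ccl24. Outside this comparison, replicate 1 of the chow-fed controls and replicates 4 and 6 of HFD-fed controls held 56.9, 57.5 and 54.9 CPM of Ackr3, against 20.4 to 30.5 CPM in the other 9 control libraries. The same 3 control libraries held 17.9, 19.2 and 23.5 CPM of Ccl24, against 3.33 to 14.4 CPM in the other 9.

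The other 3 members that passed rested on few libraries or counts. Cxcl9 was lower on the HFD by edgeR (log2 fold change -1.71 ± 0.61, adjusted p = 0.0472, and -1.89 ± 0.57 in the 19 mice, adjusted p = 0.0138), and without replicate 6 of the chow group the log2 fold change was -0.35 and did not pass. Ccr9, a gut-homing receptor for Ccl25, lay at 0.327 to 5.39 CPM on chow and 0.268 to 0.946 CPM on the HFD (-1.66 ± 0.57, adjusted p = 0.0415, and -1.60 ± 0.60 in the 19 mice, adjusted p = 0.0412), and the same replicate held 5.39 CPM. Without it, the log2 fold change of Ccr9 was -0.83 and did not pass. Leaving out any 1 of 15 libraries ended the call of Cxcl9 (replicates 2, 4, 5 and 6 of the chow-fed controls and every Lama4 AKO library but replicate 5 on chow), and any 1 of 7 that of Ccr9 (replicates 1, 3 and 6 on chow and 1, 2, 4 and 5 on the HFD). Ccl17, a ligand of Ccr4 made by dendritic cells and macrophages, had a mean of 1.99 CPM on chow, under the minimum of 2 CPM, and 0.32 CPM on the HFD (-2.67 ± 0.73, adjusted p = 0.0224, and -2.85 ± 0.76 in the 19 mice, adjusted p = 0.00675). Replicate 1 on chow held 7.52 CPM of it and the other libraries of both groups at most 1.62 CPM, and without that replicate the log2 fold change was -1.49 and did not pass, nor did it without replicate 4 on the HFD.

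**Figure D3:**
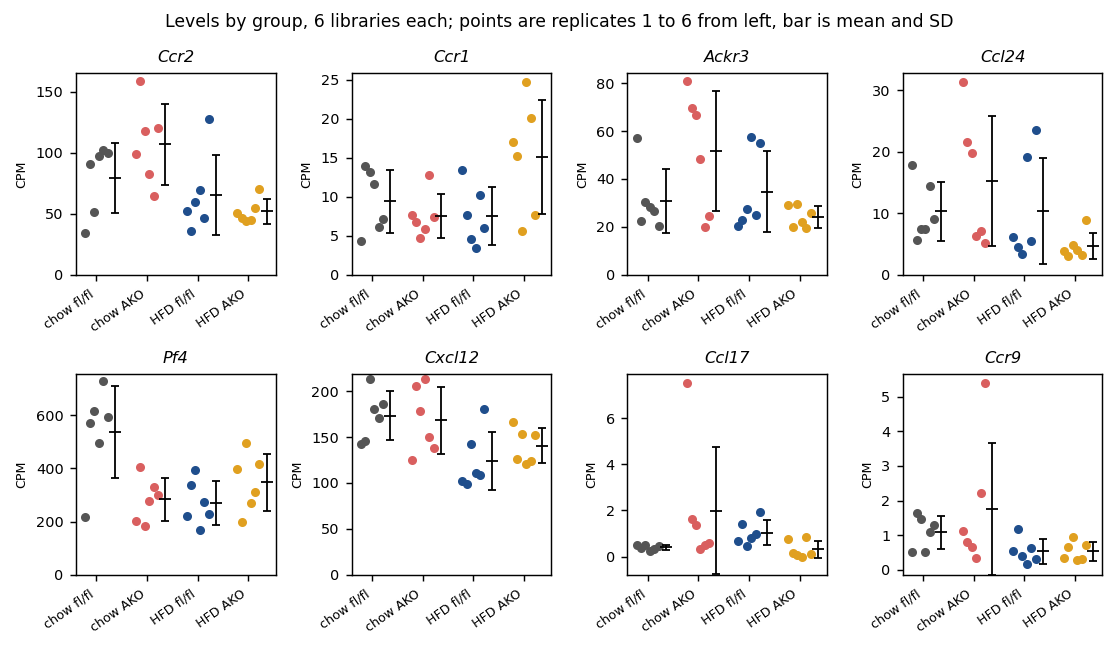
CPM of 8 members named in a diet comparison, by group. Each point is a mouse (replicates 1 to 6 from left within a group) and the bar beside it is the mean with its SD. Ccr2 is lower in HFD-fed Lama4 AKO than in chow-fed Lama4 AKO, Ccr1 is highest in 4 HFD-fed Lama4 AKO libraries, and Pf4 is high in 5 of 6 chow-fed controls.

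In control mice the diet comparison asked the same of fat with intact laminin α4. No member was called by edgeR, beside 0.173% of all genes, and none had an adjusted p of at most 0.05, beside 0% of all genes. 6 members (13.6%) had an unadjusted p under 0.05, beside 9.01% of all genes. DESeq2 called 1, Pf4 (2.27% beside 0.393%), and limma-voom 0 beside 0.166%. The median log2 fold change was 0.09 over members and -0.00808 over all genes, and 25 of 44 members were above 0.

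Pf4 lay at 217 to 728 CPM (median 583) in chow-fed controls and 170 to 394 CPM (median 252) in HFD-fed controls. The 5 chow-fed libraries other than replicate 1 held 495 to 728 CPM, above every HFD-fed control. Replicate 1, low in macrophage markers, held 217 CPM. The log2 fold change was -0.98 ± 0.27 (edgeR adjusted p = 0.434), and the stricter rule called it without replicate 1 or without replicate 3 of the HFD group. Cxcl12, the stromal ligand of Cxcr4 and Ackr3, lay at 142 to 213 CPM (median 176) on chow and 99.2 to 181 CPM (median 110) on the HFD. 4 of the 6 HFD-fed controls, at 99.2 to 111 CPM, lay below every chow-fed library of either genotype (125 CPM at the lowest), and replicate 6, at 181 CPM, was the highest HFD-fed library. The log2 fold change of Cxcl12 was -0.48 ± 0.16 (adjusted p = 0.448), and -0.68 ± 0.18 without the inferred libraries (adjusted p = 0.00905). Without replicate 6 of the HFD group alone, the stricter rule called it. Cxcl1, a neutrophil attractant, had a log2 fold change of -0.66 ± 0.24 (adjusted p = 0.448).

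Without the 5 inferred libraries, more of the table differed with diet in controls. edgeR called 11.8% of all genes and 0 of 44 members at the stricter rule, and 29% of all genes and 6 members (13.6%) at the adjusted p. Those 6 were Ccl22 (log2 fold change 1.97 ± 0.52), Ccl27a (1.18 ± 0.37), Cxcr5 (2.84 ± 0.81) and Cxcl10 (3.99-fold), which were higher on the HFD, and Ccr2 (-0.92 ± 0.29) and Cxcl12, which were lower. In Lama4 AKO, with 5 chow-fed mice, the shares were 15.7% of genes and 3 members (6.82%) at the stricter rule, Ccr2, Ackr3 and Ccl24, and 40.3% of genes and 11 members (25%) at the adjusted p. In each case the share of members was below that of all genes.

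**Figure D4:**
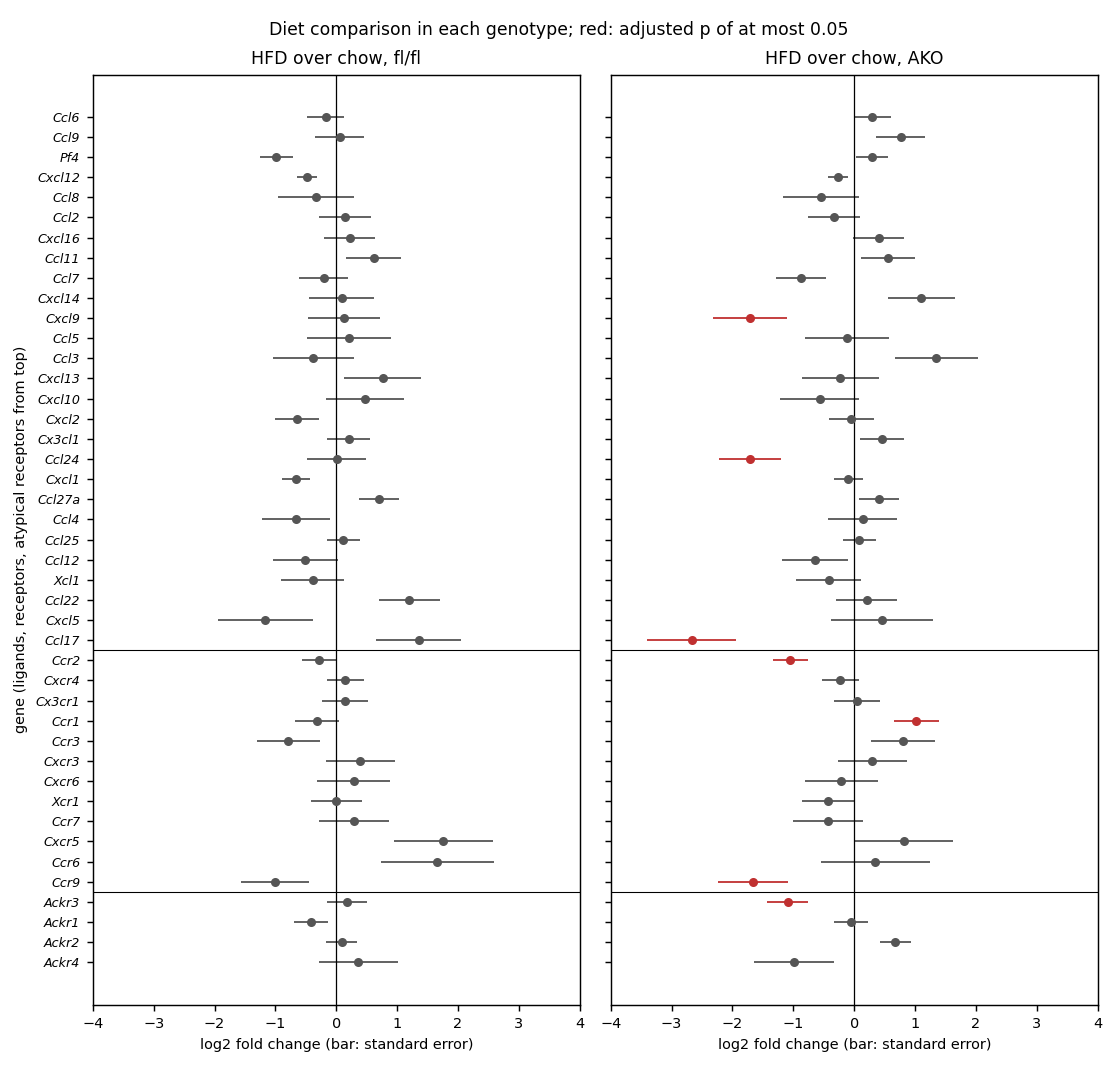
Log2 fold change of HFD over chow for 43 tested members, with its standard error, in control (left) and Lama4 AKO mice (right), fitted to all 24 libraries. Members with an adjusted p of at most 0.05 are red: none in controls and 7 in Lama4 AKO, of which Ccr1 alone lies above 0.

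Over both genotypes together, edgeR called 0 members at the stricter rule beside 2.22% of all genes, and 3 members (6.82%) at the adjusted p beside 12.4%. 8 members (18.2%) had an unadjusted p under 0.05, beside 35.5% of all genes, and DESeq2 and limma-voom called 0 beside 4.12% and 2.1%. All 3 with an adjusted p of at most 0.05 were lower on the HFD, beside 6.98% of genes lower, and none was higher beside 5.39%. They were Ccr2 (log2 fold change -0.67 ± 0.20, adjusted p = 0.0387), Cxcl12 (-0.37 ± 0.12, adjusted p = 0.0418) and the low Ccr9 (-1.34 ± 0.40, adjusted p = 0.0378). Single libraries decide these calls, since leaving out any 1 of 16 libraries moved the count of 3 by over 1.5 times, to between 0 and 5. Without the inferred libraries the stricter rule called Ccr2, Ackr3 and Ccl24, all lower (6.82% beside 21.2% of genes), and the adjusted p 12 members (27.3% beside 51.9%). With all mice, Ccr2, Cxcl12 and Ccr9 were each below 0 in both genotypes. In controls their log2 fold changes were -0.28 ± 0.28, -0.48 ± 0.16 and -1.01 ± 0.56.

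Lama4 AKO and control mice were then compared within each diet. On the HFD, edgeR called 0 members beside 0.173% of all genes at the stricter rule, and 0 beside 0% at the adjusted p. 4 members (9.09%) had an unadjusted p under 0.05, beside 14.8% of all genes, and DESeq2 and limma-voom called 0 beside 0.539% and 0.2%. Ccr1 lay at 3.47 to 13.4 CPM (median 6.81) in HFD-fed controls and 5.59 to 24.8 CPM (median 16.1) in HFD-fed Lama4 AKO, with a log2 fold change of 0.99 ± 0.37 (adjusted p = 0.293), and 0.54 ± 0.40 without the inferred libraries. Cxcl9 had a log2 fold change of -1.42 ± 0.60 (adjusted p = 0.307) and Ccl17 of -1.71 ± 0.73 (adjusted p = 0.308). These differences did not pass, with or without the inferred libraries, where 0.565% of genes and 0 members were called at the stricter rule and 0% at the adjusted p.

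On chow, 0 members were called beside 0.113% of all genes, and 0 beside 0% at the adjusted p. 4 members (9.09%) had an unadjusted p under 0.05, beside 5.85% of all genes. DESeq2 called 1, Pf4 (2.27% beside 0.273%), and limma-voom 0 beside 0.126%. Pf4 lay at 185 to 406 CPM (median 289) in chow-fed Lama4 AKO against 217 to 728 CPM in chow-fed controls, and the 5 controls other than replicate 1 lay above every Lama4 AKO library. Its log2 fold change was -0.92 ± 0.27 (adjusted p = 0.652). Both this and the diet difference of Pf4 share the chow-fed controls. Ccl17 (2.31 ± 0.69, adjusted p = 0.652) and Ackr3 (0.75 ± 0.33, adjusted p = 0.831) were above 0 and did not pass. Without the inferred libraries 0.209% of genes and 0 members were called, and 0% at the adjusted p.

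The interaction, the diet difference in Lama4 AKO minus that in controls, called 0 members beside 0.386% of all genes, and at the adjusted p 0 members beside 0.00666%. 7 members (15.9%) had an unadjusted p under 0.05, beside 15.6% of all genes, and DESeq2 and limma-voom called 0 beside 0.985% and 0.36%. The 3 with the lowest p were Ccl17 (log2 difference -4.02 ± 1.01, adjusted p = 0.22), whose group means of 0.32 to 1.99 CPM kept it under the rule, Pf4 (1.28 ± 0.38, adjusted p = 0.235) and Ackr3 (-1.27 ± 0.46, adjusted p = 0.257). So by edgeR with all 24 mice, the diet differences in Lama4 AKO mice were not shown to differ from those in controls. By DESeq2, 1 member had an adjusted p of at most 0.05, beside 58 of 15020 genes. With 1 mouse left out, 7 of 24 edgeR fits called 1 or 2 members at the stricter rule, beside 29 to 188 genes. Without the inferred libraries 0.68% of genes and 0 members were called, and 0% at the adjusted p.

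Ligands and receptors that act together were read side by side for diet. Cxcr4, the signalling receptor for Cxcl12, lay at 10.1 to 40.4 CPM over all libraries, with log2 fold changes of 0.14 ± 0.30 in controls and -0.23 ± 0.31 in Lama4 AKO, and neither passed. Ccl5, a ligand for T cells and macrophages, lay at 5.36 to 153 CPM (0.20 ± 0.69 in controls and -0.12 ± 0.69 in Lama4 AKO). It was lowest in replicate 1 of the chow-fed controls and highest in replicate 6 of chow-fed Lama4 AKO. Cx3cl1, the membrane-bound fractalkine, lay at 3.09 to 16.3 CPM (0.20 ± 0.36 and 0.45 ± 0.36), and its macrophage receptor Cx3cr1 at 5.77 to 52.6 CPM (0.14 ± 0.38 and 0.04 ± 0.38).

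Receptors of lymphocytes and dendritic cells were low in most libraries. Cxcl16, a ligand made by macrophages, lay at 18.6 to 147 CPM (0.22 ± 0.41 in controls, 0.40 ± 0.42 in Lama4 AKO) and its receptor Cxcr6, carried by T and NK cells, at 1.31 to 28.2 CPM (0.29 ± 0.60 and -0.21 ± 0.59). Cxcr3 lay at 0.927 to 18.5 CPM (0.39 ± 0.57 and 0.30 ± 0.57), and replicate 6 of chow-fed Lama4 AKO was its highest library and that of Cxcr6. The same library was the highest for Ccr7 (14.5 CPM, the others at most 5.97), Xcr1 (13.1 CPM, the others at most 5.75) and its ligand Xcl1 (11 CPM, the others at most 7.16). Xcr1 marks cross-presenting dendritic cells, and Ccr7 guides dendritic and T cells to lymph nodes. No diet or genotype difference of these genes passed with all 24 mice.

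Cxcl13 draws B cells through Cxcr5. Replicate 1 of HFD-fed controls held the highest level of both, 42.5 CPM of Cxcl13 and 6.44 CPM of Cxcr5, and also of the receptor Ccr6 (4.82 CPM). Replicate 4 of the same group held 1.66 CPM of Cxcl13 and 0.0789 CPM of Cxcr5. Beside this, 5 B cell markers ran from 2.98 to 72.4 CPM in that group, and the part of B cell number was not tested. The log2 fold changes were 0.76 ± 0.64 and 1.76 ± 0.81 in controls and -0.23 ± 0.63 and 0.81 ± 0.81 in Lama4 AKO. None passed with all mice.

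The eotaxins Ccl11 and Ccl24 share the receptor Ccr3 and did not follow each other. Ccl11 lay at 4.67 to 112 CPM, with log2 fold changes of 0.61 ± 0.45 in controls and 0.55 ± 0.45 in Lama4 AKO, which did not pass, whereas Ccl24 fell in Lama4 AKO. Ccr3 lay at 0.618 to 12.5 CPM (-0.79 ± 0.52 and 0.80 ± 0.53). Its lowest libraries, replicate 1 of the chow-fed controls (0.618 CPM), replicate 4 of HFD-fed controls (0.868 CPM) and replicate 1 of chow-fed Lama4 AKO (1.49 CPM), were among those with low macrophage markers.

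Members that are neighbours in the genome were described by cluster. On chromosome 11, Ccl2, Ccl7, Ccl11, Ccl12 and Ccl8 lie between 82035571 and 82116799, and their log2 fold changes with diet in Lama4 AKO ran from -0.88 to 0.55 with 1 of 5 above 0. In the next cluster, Ccl5, Ccl9, Ccl6, Ccl3 and Ccl4 between 83525778 and 83664683, they ran from -0.12 to 1.35 with 4 of 5 above 0. On chromosome 5, Cxcl5, Pf4, Cxcl1 and Cxcl2 lie between 90759360 and 90905938, and all 4 were below 0 with diet in controls (-1.17 to -0.64) and with genotype on chow (-1.43 to -0.11), comparisons that share the chow-fed controls. With all 24 mice, no cluster held more than 1 member past the adjusted p in either diet comparison, except the receptor cluster of chromosome 9 between 123678439 and 124113557, where Ccr9, Ccr1 and Ccr2 passed in Lama4 AKO and Cxcr6, Xcr1 and Ccr3 did not.

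Genes that act with chemokines were taken from 3 lists. Of 38 tested genes of chemokine signal transduction, 0 were called by edgeR at the stricter rule in the 6 comparisons with all 24 mice. In the 19 mice, 4 were called higher and 0 lower with diet in controls. Of all 14863 genes there, 816 were higher and 934 lower (11.8% in either direction). In Lama4 AKO, 1 was higher and 1 lower, beside 909 and 1423 genes (15.7%). Over both genotypes 7 were higher and 2 lower, beside 1316 and 1832 genes (21.2%). For genotype on chow 1 was higher and 0 lower, beside 23 and 8 genes (0.209%). At the adjusted p with all 24 mice, 6 were higher (beside 9.13% of all genes) on the HFD in Lama4 AKO, Gna13 (log2 fold change 0.69 ± 0.24), Gnb1 (0.50 ± 0.17), Gng2 (0.89 ± 0.32), Rgs19 (0.84 ± 0.27), Pik3cg (0.89 ± 0.31) and Rac1 (0.36 ± 0.13), and Plcb3 was lower (-0.64 ± 0.18, beside 12.9% of all genes). These are G protein subunits and their regulator, the PI3-kinase γ that leukocytes use for migration, a small GTPase of the cytoskeleton, and a phospholipase. The median of the list was 0.447 there, beside -0.00311 over all genes. Of 22 inducers of chemokine transcription, 0 were called at the stricter rule with all 24 mice. In the 19 mice 1 was called higher with diet in controls, 1 lower in Lama4 AKO and 1 higher over both genotypes. The shares of all genes called in either direction were 11.8%, 15.7% and 21.2%. With all 24 mice, Relb (-0.50 ± 0.17) and Hif1a (-0.55 ± 0.16) were lower on the HFD in Lama4 AKO at the adjusted p, beside 12.9% of all genes. Of 14 other chemokine-binding or chemokine-processing genes, Ppbp, a platelet chemokine outside the symbol rule (-1.32 ± 0.31), and Sdc4, a proteoglycan (-0.71 ± 0.19), were called lower there, beside 4.12% of all genes called in either direction. Mmp2, a protease that cleaves chemokines, was higher at the adjusted p (1.25 ± 0.36, beside 9.13% of all genes). In the 19 mice, 2 of these 14 were called higher with diet in controls (beside 11.8% of all genes in either direction). In Lama4 AKO 3 were higher and 2 lower (beside 15.7%), and over both genotypes 2 and 2 (beside 21.2%).

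Markers of other cells moved in the same comparison, where 9.13% of all genes were higher and 12.9% lower at the adjusted p. On the HFD in Lama4 AKO, 5 of 5 mast cell markers were higher at the adjusted p (summed level 37.1 to 412 CPM on chow, 584 to 1973 CPM on the HFD, ranges that did not overlap), as were 2 of 8 macrophage markers, Cd68 and Mertk, and 2 of 8 markers of lipid-associated macrophages, Itgax and Spp1. 3 of 7 adipocyte markers, Adipoq, Lep and Lipe, were lower (4285 to 16375 CPM on chow, 2907 to 7034 CPM on the HFD), and so were 2 of 5 endothelial, 2 of 5 mesothelial and 1 of 5 dendritic cell markers. 1 of 5 stromal progenitor markers (Pdgfra) was higher, 1 of 3 tested platelet markers was higher (Itga2b) and 1 lower (Ppbp), and none of the monocyte, T cell, B cell, NK, neutrophil, lymphatic endothelial, erythroid or epididymal markers passed there. The T cell sum ran from 19.8 to 167 CPM on chow and 21.7 to 101 CPM on the HFD, and that of 5 monocyte markers from 276 to 939 and 666 to 1643 CPM. Only 1 of those 5 monocyte markers had a log2 fold change above 0, and their median was -0.035. The part of these cell types in the differences of Ccr2, Ccr1, Ackr3 and Ccl24 was not tested.

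Some members cannot be separated from overlapping genes with certainty, since the strand setting of the counting is not given in the sources used here. Ccl6, Ccl25, Ccl27a, Cxcl10, Cxcl16, Ccr9, Ccr10, Cxcr5, Cxcr6, Cx3cr1, Ackr4 and Xcl1 overlap a gene on the other strand, and Ackr1 and Cx3cr1 overlap a gene on the same strand.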

How the data were processed

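Per the labels and the study's methods, eWAT RNA was sequenced as QuantSeq 3′ libraries, and the authors aligned and counted reads with the Lexogen pipeline on Bluebee against GRCm38 (the methods also name Rsubread for the count matrix). The deposited table holds raw counts per gene and library (5579590 to 18764516 per library), and a deposited table of normalized signal, each library's counts over 1 size factor, gave symbols and positions only. The submitters' processing notes name R 4.0.3 and DESeq2 1.30. A count of 0 allows up to 3 counts, or 0.16 to 0.538 CPM by library, for counting error only. Groups came from the genotype and diet labels, which do not pair mice, and the 60 pairs of libraries within groups differed by 5.72 or more chi-square units per degree of freedom.

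Counts were fitted here in R 4.3.3 with edgeR 4.0.16 (TMM, a filter of 1 CPM in 3 libraries, 1 coefficient per group, glmQLFTest, Benjamini-Hochberg adjustment over all genes tested). The SE is the absolute log2 fold change over the square root of F. Alternatives were limma-voom (limma 3.58.1), DESeq2 1.42.0, RLE factors, other filters and call rules, a replicate block, fits of the compared groups alone, 19 mice and each mouse left out. The fits were first tested on simulated counts. Members given in full were those called, the 3 with the lowest p in each comparison, and fixed ligand-receptor pairs. Genes named outside this rule were chosen after their values were seen. 1 tested member is counted in the totals and not reported here on its own. Members and lists were chosen with earlier results of these data known. Ccl19 and Ccl21a, the ligands of Ccr7, were not analysed here.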

Additional observations from a re-analysis of the deposited data

Results flagged for a closer look

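Within each group of 6 mice, each of 43 tested members' lowest and highest library was set against the other 5 on the log2 CPM scale by Dixon's gap test, in 172 sets of a member and a group. In 23 sets 1 library stood apart, where chance gives about 1 in 20 sets, and 14 of the 23 came from replicate 1 of the chow-fed controls. That library stood apart as the lowest for 13 members: Ccl3 (0 CPM, the others 10.3 to 17.6), Ccl4 (0.206 CPM), Ccl12 (0.618 CPM), Ccl22 (0.618 CPM), Ccr3 (0.618 CPM, the others 8.28 to 12.5), Cxcl2 (2.58 CPM), Cxcl14 (4.22 CPM), Cx3cr1 (5.77 CPM), Ccl2 (8.96 CPM), Ccl7 (10.5 CPM), Ccl9 (108 CPM), Pf4 (217 CPM) and Ccl6 (440 CPM). It stood apart as the highest for Ackr2 (9.58 CPM, the others 3.12 to 4.28), which scavenges inflammatory CC chemokines.

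Replicate 6 of chow-fed Lama4 AKO stood apart as the highest of its group for 5 members: Cxcl9 (388 CPM), Cxcl10 (32.1 CPM), Ccl8 (530 CPM), Ccl12 (7.88 CPM) and Xcr1 (13.1 CPM). The other 4 came from 4 libraries: Ccl11 was lowest in replicate 2 of HFD-fed controls (4.67 CPM, the others 45.5 to 112), Ccl7 was highest in replicate 6 of that group (158 CPM, the others 26.4 to 43.4), Ccr7 was lowest in its replicate 4 (0.474 CPM), and Ackr2 was lowest in replicate 2 of HFD-fed Lama4 AKO (3.28 CPM).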

How the results depend on the processing

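With all 24 mice the stricter rule called 0 members in each of the 6 comparisons. Counts that differed were as follows, each beside the share of all genes, where "adjusted p with fold" puts an adjusted p of 0.05 in place of the nominal p and keeps the fold and CPM criteria. In the diet comparison of controls, DESeq2 (0.393% of genes) and limma-voom without the 5 libraries (12.4%) called 1 each (Pf4 and Cxcl12), and adjusted p with fold without the 5 libraries, an alternative chosen after seeing the data, called 6 (22.9%). In that of Lama4 AKO, 3 were called without the 5 libraries (15.7%), 2 by limma-voom without them (15.9%), 3 by DESeq2 (8.75%), 1 by the fit of the compared groups (9.55%), 5 by adjusted p with fold (16.1%) and 10 by that rule without the 5 libraries (27.7%). DESeq2 called 1 (Pf4) for genotype on chow (0.273%), and dropping the mean CPM criterion called 1 (Ccl17) in the interaction (0.433%). Over both genotypes 3 were called without the 5 libraries (21.2%), 1 by limma-voom without them (21.5%), 1 by adjusted p with fold (5.87%) and 11 by that rule without the 5 libraries (29.4%). Leaving out 1 mouse gave 0 to 1 in controls, 0 to 3 in Lama4 AKO, 0 to 1 for genotype on chow, 0 to 2 in the interaction and 0 to 1 over both genotypes. The 3 in Lama4 AKO came without replicate 5 or replicate 6 on chow, and the 2 in the interaction without replicate 1 of the chow-fed controls.

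By adjusted p alone, 7 members in Lama4 AKO (22.1% of genes) became 11 without the 5 libraries (40.3%), 3 by limma-voom (22.4%) and 4 with the replicate block (16%), and 0 to 8 when 1 mouse was left out, 0 without replicate 4 on the HFD. Over both genotypes 3 (12.4%) became 12 without the 5 libraries (51.9%) and 15 by limma-voom without them (52.7%), and 0 to 5 when 1 mouse was left out. The cause was not tested. With the replicate number as a block, the stricter rule called 1 member (Ccr2) in Lama4 AKO (3.04% of genes) and 0 in the other comparisons. The numbers do not pair the mice: deviations of the 36 same-numbered pairs correlated at -0.534 to 0.714 (median 0.00112), with 15 over 0.1. The 22 log2 fold changes of 10 named members were each refitted under at most 33 settings. The 720 refitted values kept their sign. Of these, 605 stayed on their side of the adjusted p of 0.05, 112 lost it and 3 gained it. Only the 7 in Lama4 AKO and the 3 over both genotypes passed with all mice, so all 112 losses fell among those. The other named values had no call to lose and add to the 605, so that count does not show that the calls were stable. Members near 1 CPM, such as Ccl17 and Ccr9, rest on under 10 counts in many libraries.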
